A study of Mus musculus with 31 samples.

Results

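The alpha-arrestins Txnip, Arrdc4, Arrdc2 and Arrdc3 were followed through RNA sequencing of mouse liver in which the transcription factor Myc, its network partner Mlx, or both had been deleted, and of adenomas that arose in Mlx-deleted liver. The 4 genes were chosen by name, and all 4 were found among the 41549 genes of the 5-month table and the 36333 genes of the old-liver table. Levels are library-size normalised counts (CPM) on sizes scaled by the TMM method, each table scaled on its own, with mean ± SD, and no level is compared across the tables.

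Alpha-arrestins are adaptor proteins that bring ubiquitin ligases of the Nedd4 family to membrane proteins, which are then taken into the cell. Txnip also binds thioredoxin, the small protein that keeps protein thiols reduced, and lowers glucose uptake by acting on glucose transporters. Txnip and Arrdc4 are textbook targets of the glucose-responsive factors MondoA (Mlxip) and ChREBP (Mlxipl), both of which bind DNA only as dimers with Mlx. Arrdc3 is known in mouse as an adaptor for beta-adrenergic receptors, while Arrdc2 is the least studied of the 4.

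At 5 months the groups were WT (6 libraries, 4 male and 2 female), MycKO (6, likewise 4 and 2), MlxKO (4, all male) and DKO (5, all male), from mice fasted for 14 h. The knockouts carried a tamoxifen-activated Cre (Cre-ERT2) at the Rosa26 locus, which is active in most cell types, with floxed Myc, floxed Mlx or both, whereas WT was C57/B6 with no Cre named. Comparisons with WT thus change Cre and strain along with the gene, which cannot be told apart, while DKO against MycKO and DKO against MlxKO share the Cre strain. The second set held 5 adenomas of MlxKO genotype (4 female and 1 male, aged 14, 15 or 17 months, Cre-ERT2 under an albumin driver, Mlx floxed) and 5 WT livers of 17 months (3 male and 2 female), none fasted. Tamoxifen, injected daily at 75 mg/kg over 5 days from 28 days of age, was given to all groups, WT included. Whether each library came from its own animal is not in the labels. P-values therefore reflect library-to-library spread, part of which may be technical.

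Libraries of the 5-month set held 18226467 to 28476797 counts, those of old WT 16036626 to 18690029, and those of adenomas 34590164 to 37087490. Of the adenoma counts from 1 to 19, 81.0 to 83.1% were even numbers, against 42.3 to 44.1% in old WT. Counts of the 2 groups may thus not stand for the same number of fragments, and with the adenoma counts halved the 4 members kept their direction and side of the threshold. Myc was at 0.492 to 2.61 CPM in MycKO and DKO and at 3.61 CPM or more in WT and MlxKO. Mlx was at 14.7 to 20.8 CPM in MlxKO and DKO and at 21.4 to 29.0 CPM in WT and MycKO. Its fall in MlxKO against WT was 0.46 ± 0.11 (SE) on the log2 scale (adjusted p = 0.0395, edgeR), a call lost in 13 of 19 alternative analyses. In DKO it was 0.61 ± 0.10 against WT (adjusted p = 0.000887) and 0.50 ± 0.10 against MycKO (0.00521), and both calls held in all 20 alternatives. Mlx missed the threshold in adenomas against old WT, with a fall of 0.55 ± 0.17 (adjusted p = 0.0516). Each table counts Mlx as a whole gene, and the floxed exons are not in the labels. WT 2, WT 5 and MycKO 5 stood apart on the second principal component of the 5-month set. Adenoma 5 is labelled male although its Xist count was high. Hepatocyte markers summed to 72600 CPM or more in every 5-month library.

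The promoters of Txnip and Arrdc4 are shown because the factors that pair with Mlx bind CACGTG-like letters, singly or as pairs. Each run below, from RefSeq on build GRCm38.p6, holds 250 bases before and 50 after the annotated start of transcription, 5′ to 3′ on the strand of the gene, at chr3:96557707-96558006 (plus) for Txnip and chr7:68749189-68749488 (minus) for Arrdc4. Capitals mark matches on either strand to 5 motifs. These are the E-box CACGTG, the tandem pair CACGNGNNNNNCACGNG (a CACGNG repeated after 5 bases), the CCAAT box, the forkhead motif GTAAACA and the glucocorticoid receptor motif GNACANNNTGTNC. No 2 marked motifs of different kinds overlap.
Txnip: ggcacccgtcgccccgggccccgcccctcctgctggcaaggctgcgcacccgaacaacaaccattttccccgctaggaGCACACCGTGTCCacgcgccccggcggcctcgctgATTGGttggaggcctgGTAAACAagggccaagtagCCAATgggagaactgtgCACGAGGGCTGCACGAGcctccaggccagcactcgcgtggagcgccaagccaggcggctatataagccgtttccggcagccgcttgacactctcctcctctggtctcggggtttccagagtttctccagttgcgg
Arrdc4: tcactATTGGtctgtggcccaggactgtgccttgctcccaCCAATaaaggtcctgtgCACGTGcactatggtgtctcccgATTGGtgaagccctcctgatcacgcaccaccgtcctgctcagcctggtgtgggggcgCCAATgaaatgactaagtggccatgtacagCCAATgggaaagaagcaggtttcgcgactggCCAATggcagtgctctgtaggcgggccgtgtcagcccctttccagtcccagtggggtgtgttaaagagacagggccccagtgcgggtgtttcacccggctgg

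Txnip carried the tandem pair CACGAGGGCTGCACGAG, its first base 85 bases before the start. Only 16 of 32851 mouse promoters of this length (0.0487%) held such a pair. Txnip also carried 1 forkhead motif (3.65% of promoters), 1 glucocorticoid motif (0.475%) and CCAAT on each strand (37.4%). Arrdc4 carried the E-box CACGTG 193 bases before the start, which 7.15% of promoters held, and 6 CCAAT boxes. Arrdc2 had 3 CCAAT boxes, and of the 3 promoters listed for Arrdc3 2 had 1 CCAAT box and 1 had no match. The inverted pair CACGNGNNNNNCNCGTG, which 0.0457% of promoters held, was in no member. A match describes these letters and does not show that a factor binds.

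Txnip (ENSMUSG00000038393, chromosome 3, 96557957 to 96561883, plus strand) was the most abundant of the 4 at 5 months. Per length, on the deposited TPM scale, which divides reads by transcript length, WT stood at 133 TPM ± 70.5 (n = 6) for Txnip, 15.7 ± 8.83 for Arrdc3, 9.42 ± 4.41 for Arrdc4 and 4.64 ± 1.81 for Arrdc2. The other family members were rarer in WT, Arrdc1 at 2.35 TPM ± 0.685 and Arrdc5 at 0 to 0.564 TPM.

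In WT, Txnip ranged from 83.7 CPM in WT 2 to 332 CPM in WT 3, with a median of 183. MycKO ranged from 111 to 413 CPM with a median of 290. MlxKO libraries 1 to 4 had 117, 200, 97.1 and 126 CPM, and DKO libraries 1 to 5 had 168, 213, 235, 153 and 259 CPM. The order of the means was MlxKO (135 CPM ± 44.9, n = 4), WT (192 ± 102, n = 6), DKO (205 ± 44.6, n = 5) and MycKO (270 ± 107, n = 6), and each neighbour overlapped the next.

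Txnip did not pass the test in any comparison fitted here. In MlxKO against WT its log2 change was −0.19 with a 95% interval of −0.89 to 0.52 (adjusted p = 0.776), which leaves room for a fall of 1.85-fold or a rise of 1.43-fold. In DKO against MycKO, where both groups carry the Cre, the log2 change was −0.11 (−0.76 to 0.55, adjusted p = 0.848). In MycKO against WT it was 0.53 (−0.07 to 1.13, adjusted p = 0.683), and in DKO against MlxKO 0.61 (−0.09 to 1.31, adjusted p = 0.917). DKO against WT gave 0.42 (−0.24 to 1.08, adjusted p = 0.364).

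**Figure D1:**
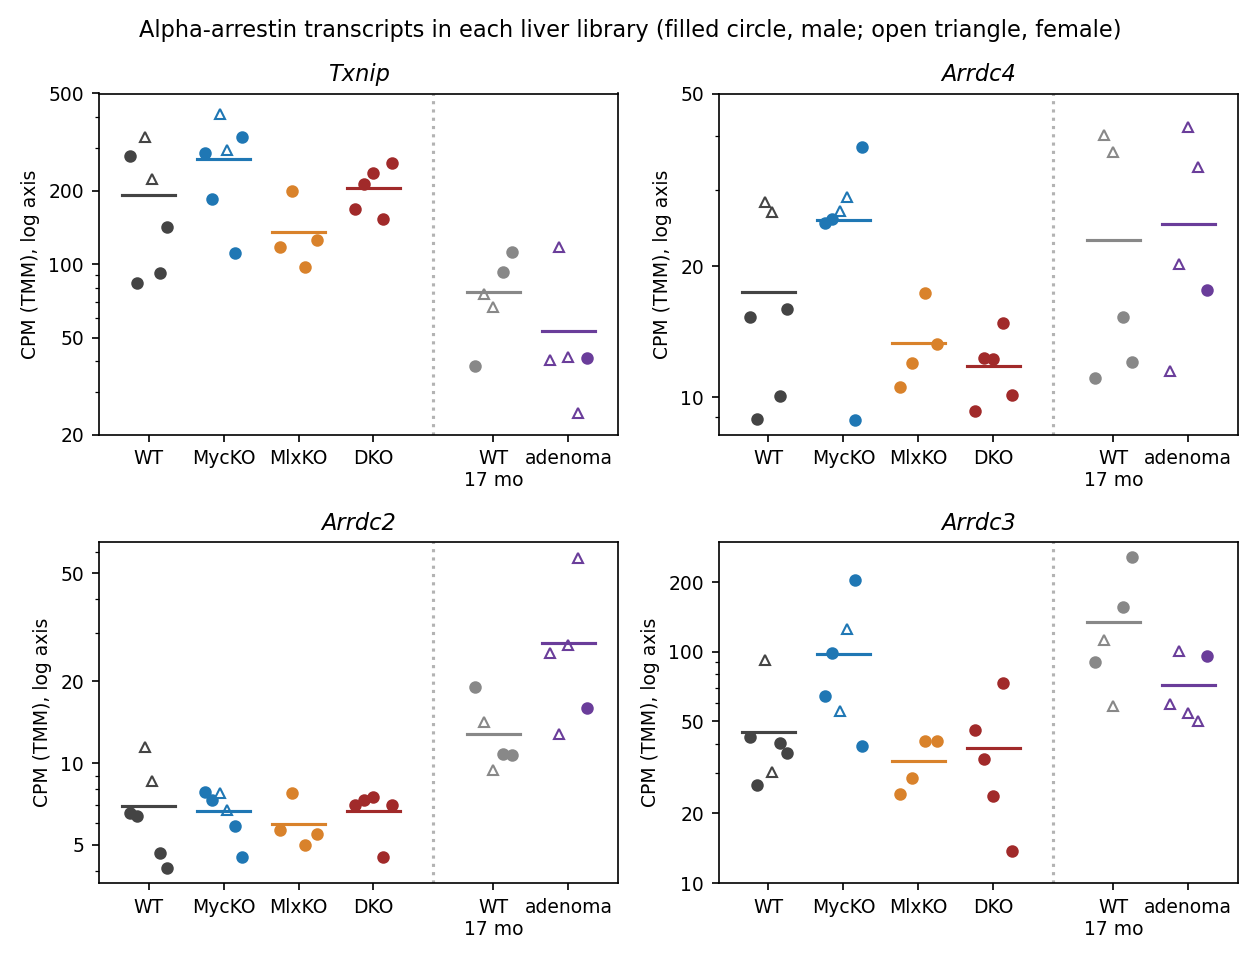
Level of each alpha-arrestin in every library, in CPM on a log axis, by group; filled circles are males, open triangles females, bars group means, and the dotted line parts the 5-month set from the old set, which was scaled separately. Ranges of neighbouring 5-month groups overlap for all 4 genes. The 2 WT females lie above all 4 WT males for Arrdc4 and Arrdc2, while the test for sex called 0 of 4 members.

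The locus of Txnip holds a second transcribed gene. Gm15441 (chromosome 3, 96555765 to 96566801, minus strand) spans all of Txnip on the other strand and is known in mouse liver as a noncoding antisense RNA induced by fasting through PPARα. Annotated exons of Gm15441 cover 606 of the 3123 exon bases of Txnip (19.4%), including the first exon. No source used here gives the strandedness of the counting. In those bases reads of one gene cannot be told apart from reads of the other. Gm15441 was added after its values were seen, because of this overlap.

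**Figure D2:**
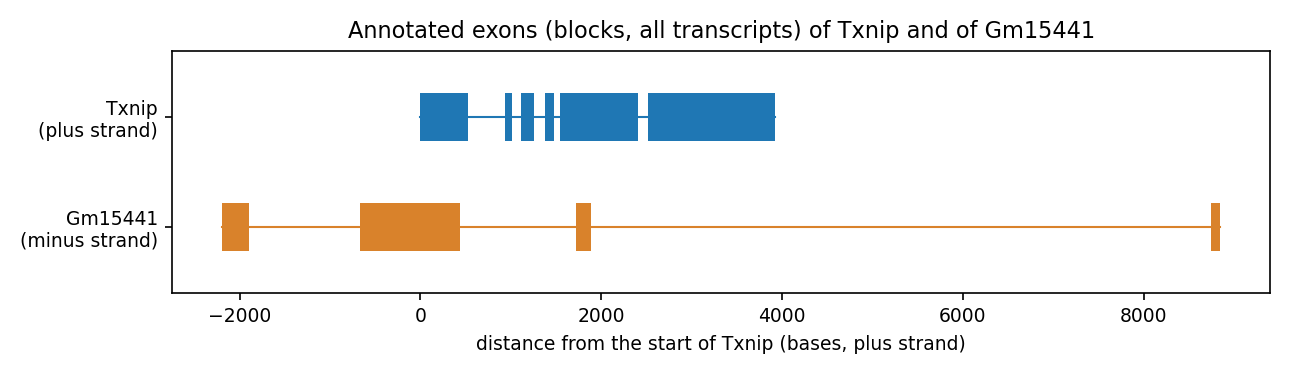
Exons of Txnip and of Gm15441 over all annotated transcripts, drawn to scale by distance in bases from the start of Txnip; blocks are exons and thin lines introns. Gm15441 exons overlap the first exon and an internal exon of Txnip, 606 bases in all.

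Gm15441 was higher in both Mlx-deleted groups than in WT, from which they also differ in Cre and strain. WT libraries 1 to 6 had 39.6, 7.61, 15.7, 12.2, 16.1 and 41.9 CPM, whereas MlxKO libraries had 82.9, 63.4, 199 and 237 CPM and DKO libraries 282, 183, 275, 230 and 256 CPM. Every MlxKO and DKO library exceeded every WT library. MycKO ran from 5.85 CPM in MycKO 5 to 187 CPM in MycKO 2, with a median of 48.2. It overlapped WT, MlxKO and, through MycKO 2 alone, DKO.

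Against WT the rise of Gm15441 was 9.39-fold in DKO (log2 3.23 ± 0.61 SE, adjusted p = 0.00202) and 5.57-fold in MlxKO (2.48 ± 0.62, adjusted p = 0.0456). The share of all genes called higher in these comparisons was 7.58% and 0.634%. The DKO call held in all 20 alternatives, while the MlxKO call was lost in 12 of 19, among them 8 of the 10 analyses that left out 1 library and males only. DKO against MycKO gave 1.74 ± 0.59 (adjusted p = 0.0577), MycKO against WT 1.49 ± 0.54 (adjusted p = 0.453) and DKO against MlxKO 0.75 ± 0.61 (adjusted p = 0.98). In the unfasted old set Gm15441 had at most 60 counts in a library and was too low to test.

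Per length, on the deposited TPM scale, Gm15441 stood above Txnip in DKO, at 354 TPM ± 77.6 against 157 ± 30.8 (n = 5), with no overlap between the ranges of 259.5 to 434 and 118 to 199. In WT the order was the other way, at 29.5 TPM ± 20.8 for Gm15441 and 133 ± 70.5 for Txnip (n = 6), with overlap. The difference between the genes was not tested. How far reads of Gm15441 entered the counts of Txnip, or the reverse, was not tested.

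**Figure D3:**
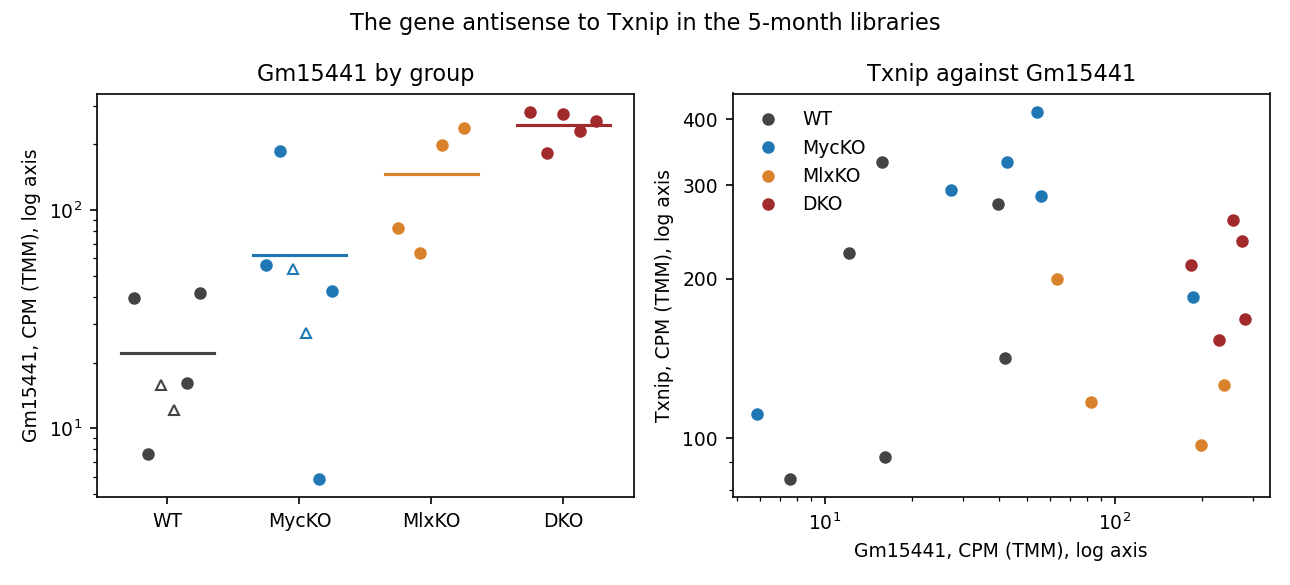
Gm15441 by group at 5 months (left; circles males, triangles females, bars means) and Txnip against Gm15441 with 1 point a library (right), all in CPM on log axes. MlxKO and DKO libraries lie at 63.4 CPM or more of Gm15441 and WT libraries at 41.9 CPM or less, while Txnip overlaps between the groups.

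Arrdc4 (ENSMUSG00000042659, chromosome 7, 68736995 to 68749241, minus strand), the other textbook MondoA target among the 4, gave the members' only call in the main edgeR fits. MlxKO against MycKO was not among the comparisons fitted. DKO libraries 1 to 5 had 9.31, 12.3, 12.3, 14.9 and 10.1 CPM. MycKO libraries 1 to 6 had 25.2, 25.7, 26.9, 28.9, 8.86 and 37.7 CPM. MycKO 5 lay under all 5 DKO libraries and the other 5 MycKO libraries lay above them.

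Arrdc4 was 1.87-fold lower in DKO than in MycKO (log2 −0.90 ± 0.28 SE, 95% interval −1.48 to −0.32, adjusted p = 0.041), with 5 of 5 DKO libraries under the MycKO mean. Of the 4 members 1 was called, where 11.9% of all genes tested were called in either direction, 7.52% lower and 4.36% higher. The call was lost with limma-voom (adjusted p = 0.102), with plain library totals (0.0582) and in 8 of the 11 analyses that left out 1 library, with adjusted p up to 0.117 there. It held with DESeq2 (0.018) and in males only (0.0264). Without WT 2, WT 5 and MycKO 5 the adjusted p was 0.00199. MycKO 5 was the lowest MycKO library, so leaving it out raises the MycKO mean and is no separate support.

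Markers of other cells moved in the same comparison. Of 10 Kupffer cell markers 8 fell in DKO against MycKO, where 7.52% of all genes were called lower. The summed level of the 10 was 130 to 248 CPM in DKO and 329 to 566 in MycKO, with none at 0. Of 8 measured T and NK cell markers 3 fell (Cd3g, Cd8a and Cd3e), with a summed level of 2.77 to 4.54 CPM against 4.46 to 10.8, and Trac listed at 0 in both groups. Their part in the fall of Arrdc4 was not tested, and in bulk liver fewer cells of a type cannot be told apart from less RNA per cell.

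In WT, Arrdc4 had 15.3, 8.89, 28.2, 26.7, 10.1 and 15.9 CPM in libraries 1 to 6, and in MlxKO 10.6, 12, 17.4 and 13.3 CPM. The WT range took in all 4 MlxKO libraries. MlxKO against WT gave a log2 change of −0.08 (−0.72 to 0.55, adjusted p = 0.897) and DKO against WT −0.26 (−0.86 to 0.34, adjusted p = 0.551). MycKO against WT gave 0.64 (0.11 to 1.18, unadjusted p = 0.0211, adjusted p = 0.556). The interaction, which asks whether the double deletion departs from the sum of the single ones on the log scale, was −0.82 ± 0.39 for Arrdc4 (unadjusted p = 0.0496, adjusted p = 1). No gene passed the interaction test in edgeR, with 469 at an unadjusted p under 0.05, 4 called by DESeq2, and 1 called by edgeR without WT 2, WT 5 and MycKO 5.

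Arrdc3 (ENSMUSG00000074794, chromosome 13, 80883384 to 80896042, plus strand) had its highest 5-month mean in MycKO. MycKO libraries 1 to 6 had 64.2, 99.2, 55.3, 125, 204 and 39.2 CPM, and DKO libraries 1 to 5 had 45.7, 34.4, 23.8, 73.4 and 13.7 CPM. MycKO 5, which was lowest of its group for Arrdc4 and Txnip, was highest for Arrdc3. A gene on the other strand within Arrdc3, 1700023H06Rik, had 0 to 4 counts in a library. WT libraries 1 to 6 had 42.8, 26.7, 92.3, 30.4, 40.5 and 36.5 CPM, with WT 3 apart from the rest. MlxKO libraries had 24.3, 28.6, 41.0 and 41.3 CPM.

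The log2 change of Arrdc3 in DKO against MycKO was −1.27 ± 0.44 (95% interval −2.18 to −0.35), and it missed the threshold (adjusted p = 0.0627). It passed with DESeq2 (adjusted p = 0.0495), without a sex term (0.0399) and in males only (0.0373), and over all 20 alternatives the adjusted p ran from 0.0338 to 0.242. The largest of these was without MycKO 5, where the log2 change was −0.76. In the authors' deposited table, whose signs are those of the first group named over the second, MycKO against DKO stood at log2 1.35 with adjusted p = 0.00353 for Arrdc3, and at 1.12 with adjusted p = 0.00233 for Arrdc4. MycKO against WT gave 1.17 (0.32 to 2.01, unadjusted p = 0.00906, adjusted p = 0.429) and MlxKO against WT −0.28 (−1.28 to 0.72, adjusted p = 0.76).

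Arrdc2 (ENSMUSG00000002910, chromosome 8, 70835129 to 70839720, minus strand) was the rarest and steadiest of the 4 at 5 months. WT ran from 4.13 to 11.5 CPM with a median of 6.48, and MycKO from 4.52 to 7.80 with a median of 7.01. MlxKO libraries had 5.67, 7.75, 4.99 and 5.50 CPM, and DKO libraries 6.995, 7.32, 7.50, 4.51 and 7.001 CPM. The group means lay between 5.98 and 6.98 CPM. The 95% intervals were −0.40 to 0.38 for MycKO, −0.45 to 0.47 for MlxKO and −0.27 to 0.60 for DKO against WT, on the log2 scale. Rises of up to 1.52-fold and falls of up to 1.37-fold lie within these intervals, and adjusted p ran from 0.598 to 0.993.

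Taken by comparison, edgeR called 0 of the 4 members in MycKO against WT (2 at an unadjusted p under 0.05), with 0.0896% of all genes called, 0.0299% higher and 0.0597% lower. It called 0 in MlxKO against WT (0 unadjusted), where 1.69% of all genes were called and 1.06% called lower. It called 0 in DKO against WT (0 unadjusted, 18.5% of all genes) and 0 in DKO against MlxKO (0 unadjusted), where 0.0373% of all genes were called, 0.00746% higher and 0.0299% lower. DESeq2 and limma-voom called 0 in each of these. The 3 comparisons with WT share its 6 libraries, and the comparisons with DKO share its 5.

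**Figure D4:**
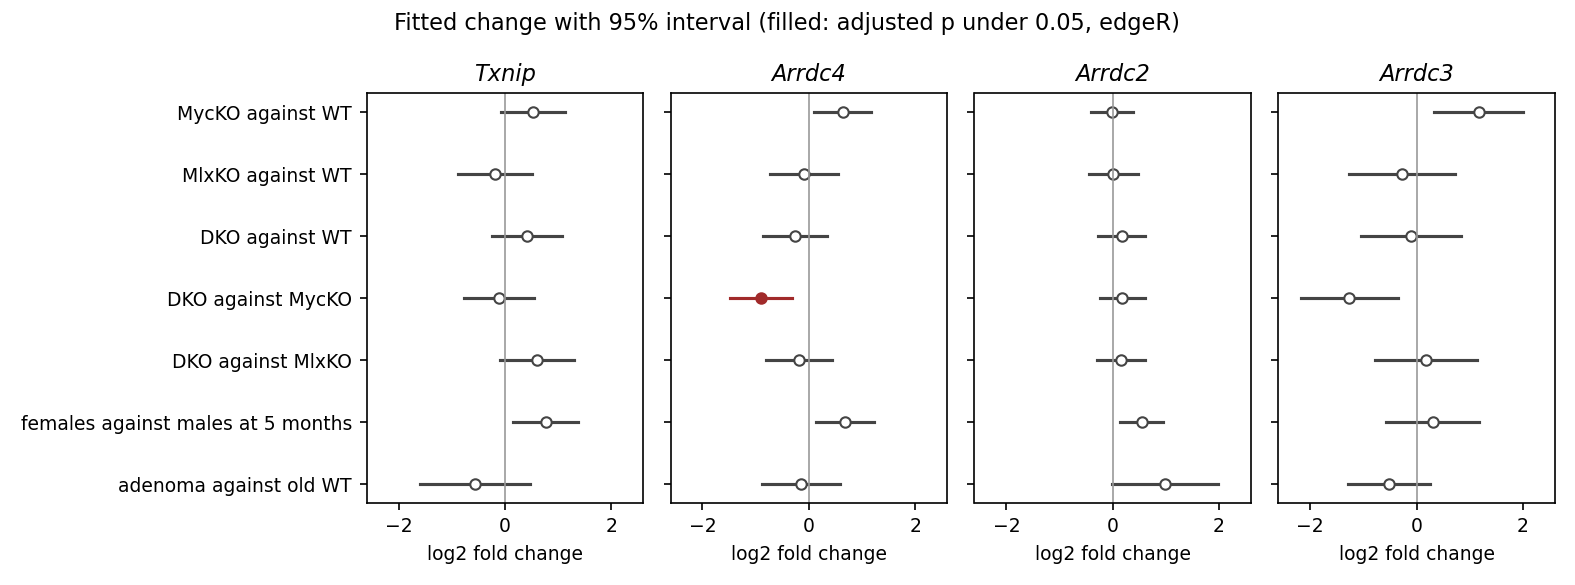
Log2 fold change of each alpha-arrestin in 7 comparisons from the edgeR fit, with bars for the 95% interval and a filled point where the adjusted p was under 0.05. The 1 filled point is Arrdc4 in DKO against MycKO, at −0.90.

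Other targets of the Mlx partners moved in the same libraries. Of 27 tested genes of a list of ChREBP and MondoA targets, 7 fell in MlxKO against WT, 13 in DKO against WT and 15 in DKO against MycKO, and none rose. The shares of all genes called lower were 1.06%, 10.9% and 7.52%. The list's median log2 change was −0.965 in MlxKO and −0.958 in DKO against WT and −0.66 in DKO against MycKO, while the median of all genes was within 0.03 of 0. Pklr, the pyruvate kinase of liver, had 8.97 to 13.0 CPM in the 4 MlxKO libraries and 27.7 to 92.6 in WT, 4.82-fold lower (adjusted p = 0.00672). Tkfc, which phosphorylates dihydroxyacetone and glyceraldehyde, was 3.23-fold lower (adjusted p = 0.00173), malic enzyme Me1 2.0-fold (0.00674) and the liver glycogen phosphorylase Pygl 2.03-fold (0.00848). In DKO against MycKO, Pklr was 8.91-fold lower (adjusted p = 8.31e-05), Tkfc 4.82-fold (4.76e-06) and the fatty acid elongase Elovl6 3.81-fold (0.000793). The calls of Pklr, Tkfc, Me1, Pygl and Elovl6 held in all alternatives. Beside these falls, Txnip stood at −0.19 and Arrdc4 at −0.08 in MlxKO against WT. The difference between a list and a single gene was not tested.

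**Figure D5:**
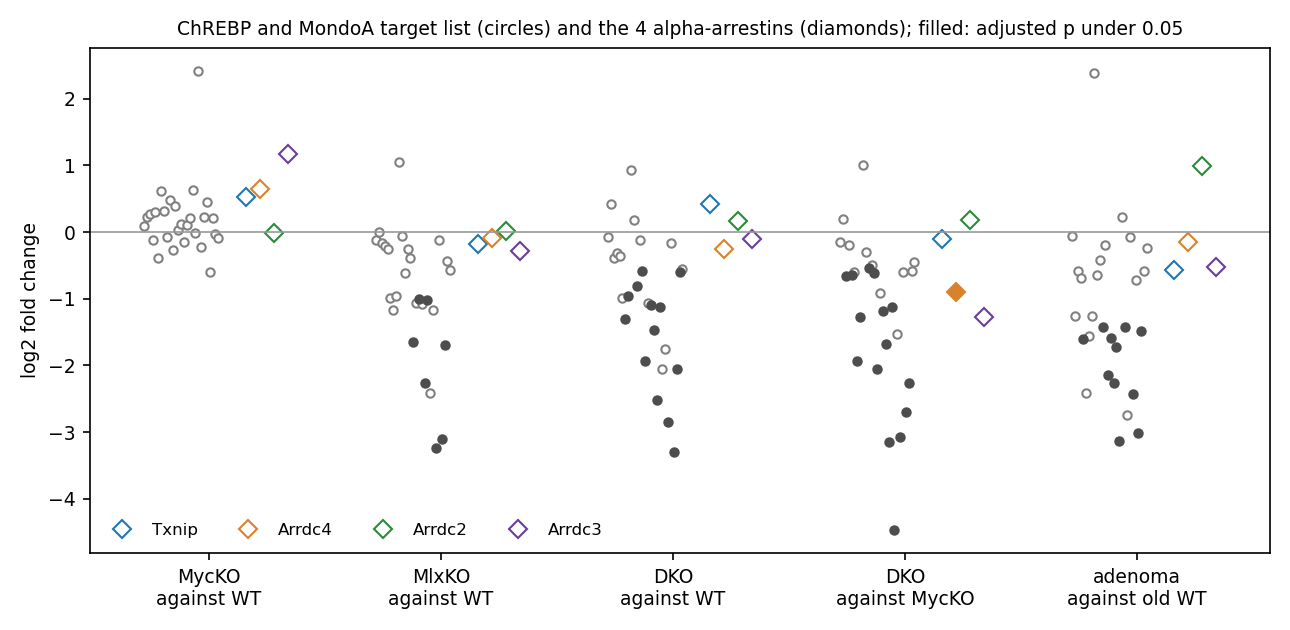
Log2 fold change of the listed ChREBP and MondoA targets (circles) and of the 4 alpha-arrestins (diamonds) in 5 comparisons, filled where the adjusted p was under 0.05. In MlxKO against WT 7 of 27 listed genes are filled, all lower, and none of the 4 alpha-arrestins is.

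The thioredoxin system, whose main protein Txnip binds, also fell in part. In DKO against WT 5 of 11 genes fell and none rose, against 10.9% of all genes called lower, with a median log2 change of −0.44. Named by smallest adjusted p they were mitochondrial thioredoxin Txn2 (1.55-fold lower, adjusted p = 0.00568), its reductase Txnrd2 (1.51-fold, 0.00879) and the peroxiredoxins Prdx5 (1.71-fold, 0.0164) and Prdx2 (1.53-fold, 0.0201). The Txn2 call held in all 20 alternatives, and the Prdx5 and Prdx2 calls were each lost in 5. In DKO against MycKO 2 of 11 fell, where 7.52% of all genes were called lower, namely Prdx5 (1.73-fold, adjusted p = 0.0174) and Txnrd2 (1.44-fold, 0.0232, lost in 7 of 20 alternatives), and in MlxKO and MycKO against WT none passed. In DKO against WT 6 of 10 Kupffer markers and 5 of 5 erythroid markers fell too, with summed levels of 181 to 544 CPM in DKO and 255 to 2080 in WT for the erythroid list. Their part was not tested.

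Of 8 tested Nedd4-family ligases, Wwp1 rose in DKO against WT (1.40-fold, adjusted p = 0.0399), a call lost in 11 of 20 alternatives. Of 10 tested cargo proteins of alpha-arrestins 2 were called in DKO against MycKO and 2 in DKO against WT, where 11.9% and 18.5% of all genes were called. Of these cargo proteins, the beta-adrenergic receptor Adrb1 fell in DKO against MycKO from 1.07 CPM ± 0.581 to 0.554 ± 0.108 (adjusted p = 0.0259), and Adrb3 rose from 1.45 ± 0.679 to 3.33 ± 1.05 (adjusted p = 0.0288). These calls were lost in 8 and 7 of 20 alternatives. In DKO against WT the receptor Notch1 rose 1.62-fold (adjusted p = 0.042, lost in 8 of 20) and the epidermal growth factor receptor Egfr fell 1.75-fold (0.0422, lost in 11 of 20). Of 13 insulin-repressed FOXO targets only Pdk4, an inhibitor of pyruvate oxidation, passed in DKO against WT, where it rose 7.53-fold (adjusted p = 0.0092); 7.58% of all genes were called higher there. Of 13 glucocorticoid-responsive genes none passed in any 5-month comparison.

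Txnip and Arrdc4 were low in the same 3 libraries. Among the 12 WT and MycKO libraries the 3 lowest values of both genes were those of WT 2, WT 5 and MycKO 5, at 83.7, 92.2 and 111 CPM for Txnip and 8.89, 10.1 and 8.86 CPM for Arrdc4. These libraries were the 3 lowest for 3.14% of all genes tested, for 4 of 13 FOXO targets (Irs2, Igfbp1, Foxo1 and Pdk4) and for 3 of 13 glucocorticoid-responsive genes (Fkbp5, Zbtb16 and Ddit4). They were not the 3 lowest for Arrdc2 or Arrdc3. The choice of these libraries came from the data, so the counts are a description. Without them Txnip in DKO against WT had a log2 change of −0.02 in place of 0.42.

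Over the 21 5-month libraries the gene whose log2 CPM was most like Txnip was Zbtb16, a zinc finger transcription factor, with Pearson r = 0.785, followed by Lpar1 (0.768), Dgka (0.767), Tead1 (0.763) and Glrx (0.759). Zbtb16 ran from 1.94 to 49.8 CPM, and was at 3.22 CPM or less in WT 2, WT 5 and MycKO 5. Arrdc4 came 50th on this measure for Txnip, at r = 0.671. For Arrdc4 the most alike were Dact2 (0.809), Lgals8 (0.796), Mppe1 (0.792), Amigo2 (0.783) and Leprot (0.774). For Arrdc2 they were Nptxr (0.817), Sphk1 (0.785), Angptl4 (0.767), Ccdc68 (0.762) and Apbb3 (0.756), of which Nptxr, Sphk1 and Ccdc68 averaged under 1 CPM. For Arrdc3 they included Anxa11 (0.814), Vamp4 (0.715), Cryzl1 (0.706) and Arl1 (0.695). These are descriptions over libraries that share their groups, and carry no test.

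Within groups, after group and sex means were subtracted, Txnip and Arrdc4 had r = 0.563 over 21 libraries (permutation p = 0.02, adjusted over 6 pairs 0.12) and Spearman rho = 0.375 (adjusted p = 0.248 by permutation). Without the 2 libraries farthest from the median r was 0.354, and without WT 2, WT 5 and MycKO 5 it was 0.218. Both genes were low in WT 2, WT 5 and MycKO 5, which were chosen from the data. Leaving them out thus does not decide what the relation rests on. The other 5 pairs had r from −0.435 for Txnip and Arrdc3 to 0.35 for Txnip and Arrdc2, with adjusted permutation p of 0.176 or more.

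Sex was compared because WT and MycKO hold both sexes while MlxKO and DKO hold males only. In WT the 2 females had 28.2 and 26.7 CPM of Arrdc4 and the 4 males 15.3, 8.89, 10.1 and 15.9 CPM, with no overlap. For Arrdc2 the WT females had 11.5 and 8.57 CPM and the males 6.57, 6.39, 4.68 and 4.13, again with no overlap. These splits rest on 2 females, and the test for sex called 0 of 4 members. In MycKO 3 of 4 males lay under both females for Arrdc4 and 2 of 4 for Arrdc2. In the old WT livers Arrdc4 was likewise higher in the 2 females (40.1 and 36.7 CPM) than in the 3 males (11.1, 15.3 and 12.03 CPM), a difference that was not tested.

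At 5 months females exceeded males by 0.77 ± 0.30 for Txnip, 0.68 ± 0.27 for Arrdc4 and 0.54 ± 0.19 for Arrdc2 on the log2 scale. The unadjusted p was 0.0172, 0.0182 and 0.0106, and the adjusted p 0.176, 0.179 and 0.139. So edgeR called 0 of 4 members for sex, with 3.48% of all genes called, 1.34% higher and 2.13% lower in females, and DESeq2 and limma-voom called 0. Arrdc2 passed with plain library totals (adjusted p = 0.0267) and Txnip without WT 1 (0.0441). Of the ChREBP and MondoA list 4 of 27 were higher in females, Tkfc, Rgs16, Acaca and Fgf21, against 1.34% of all genes. Tkfc had the smallest adjusted p (0.000379, 2.38-fold), and its call held in all 18 alternatives. The calls of Rgs16, Acaca and Fgf21 were lost in 7, 6 and 9 of 18. Of the cargo list 3 of 10, F2r, Egfr and Slc11a2, were lower, against 2.13% of all genes, Egfr by 2.51-fold (adjusted p = 0.00611).

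In adenomas against old WT none of the 4 members passed in edgeR (0 at an unadjusted p under 0.05, 16.4% of all genes called, 8.74% higher and 7.68% lower), DESeq2 or limma-voom. Txnip had 40.5, 117, 41.7, 24.6 and 41.3 CPM in adenomas 1 to 5 and 38.2, 75.1, 67.0, 93.2 and 112 CPM in old WT 1 to 5. Of the adenomas 4 lay under the old WT mean and adenoma 2 lay above every old WT library. The log2 change was −0.56 (95% interval −1.60 to 0.47, adjusted p = 0.434).

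Arrdc2 had 25.5, 12.9, 27.1, 57.1 and 15.9 CPM in the adenomas and 19.0, 14.2, 9.44, 10.8 and 10.7 CPM in old WT. All 5 adenomas were above the old WT mean, and the ranges overlapped. The log2 change of 0.98 ± 0.45 (−0.01 to 1.98) missed the threshold (adjusted p = 0.155) and passed with plain library totals (0.0359) and without a sex term (0.0464). The authors' deposited table lists Arrdc2 at log2 −1.12 for old WT over adenoma, with adjusted p = 0.00645.

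Arrdc3 had 59.4, 101, 54.3, 49.9 and 96.2 CPM in the adenomas and 90.2, 113, 58.6, 156 and 257 CPM in old WT, so that all 5 adenomas lay under the old WT mean. Its log2 change was −0.52 (−1.29 to 0.25, adjusted p = 0.325), and in the authors' deposited table old WT over adenoma is 0.88 with adjusted p = 0.0493. Arrdc4 had 11.5, 20.3, 41.8, 33.9 and 17.6 CPM in the adenomas and 11.1, 40.1, 36.7, 15.3 and 12.03 CPM in old WT, with full overlap (log2 −0.16, −0.89 to 0.58, adjusted p = 0.783). Its direction flips to 0.20 with plain library totals. Arrdc1, outside the 4, averaged 7.19 CPM ± 2.91 over 5 adenomas against 3.08 ± 1.05 over 5 old WT livers (log2 0.94 ± 0.31, adjusted p = 0.0585). Arrdc1 passed in 4 of 18 alternatives. Arrdc5 had no count in any library of the old set.

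The tissue of the 2 groups differed beside these values. Hepatocyte markers summed to 27700 to 56200 CPM in the adenomas and 106000 to 149000 CPM in old WT. Of 9 tested hepatocyte markers only albumin was called, 14.0-fold lower (adjusted p = 0.000896), at 5340 CPM against 84000 in old WT. The median log2 change of the 9 was −0.0411, against 0.0381 for all genes. Of 5 tested neutrophil markers 5 rose, where 8.74% of all genes were called higher. Their summed level was 8.08 to 111 CPM against 4.11 to 10.4. Of 10 stellate cell and fibroblast markers 4 rose, with 159 to 1060 CPM against 204 to 416. Their part in the values of the members was not tested. Genotype, tumour, Cre driver, age, sex balance, library totals and the share of even counts differ together between these groups and cannot be told apart.

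Among the listed ChREBP and MondoA targets 11 of 28 fell in the adenomas and none rose, against 7.68% of all genes called lower, with a median log2 change of −1.34. Pklr was 8.75-fold lower (adjusted p = 0.000363), the fructokinase Khk 4.40-fold (0.000417), the glucose transporter Slc2a2 5.38-fold (0.000951) and the lipogenic factor Mid1ip1 3.32-fold (0.00146), and these 4 calls held in all 18 alternatives. Of the thioredoxin system 4 of 11 fell, with Txn1, the cytosolic thioredoxin that Txnip binds, at 92.6 CPM ± 29.4 in the adenomas and 229 ± 18.9 in old WT (2.62-fold, adjusted p = 0.00381). The Txn1 call held in all 18 alternatives, while Txnrd2 (2.13-fold, adjusted p = 0.00745), Prdx5 (1.65-fold, 0.0292) and Txn2 (1.63-fold, 0.0491) lost theirs in 1, 7 and 12. The beta-arrestin Arrb1 rose 1.98-fold (adjusted p = 0.034, lost in 9 of 18). Of 13 FOXO targets only Igfbp1 was called, 5.79-fold higher (adjusted p = 0.00169), and the median log2 change of the 13 was −0.0528. Of 13 glucocorticoid-responsive genes Klf9 fell 1.94-fold (adjusted p = 0.0207, lost in 4 of 18) and Sgk1 rose 2.21-fold (0.0469, lost in 9 of 18). Among all genes 8.74% were called higher and 7.68% lower.

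Within the 2 groups of the old set 2 of 6 pairs of members passed by Pearson r. Libraries were shuffled within groups, while sex means were subtracted too, so these permutation p-values may be too small. Over 10 libraries, after group and sex means were subtracted, Txnip and Arrdc3 had r = 0.839 (adjusted p = 0.00936 by permutation) and rho = 0.891 (adjusted p = 0.00306), and r = 0.71 without the 2 farthest libraries. Txnip and Arrdc2 had r = −0.905 (permutation p = 0.00544, adjusted 0.0163) and rho = −0.721 (adjusted p = 0.0892 by permutation), and r = −0.824 without the 2 farthest. The other 4 pairs had r from −0.564 for Arrdc2 and Arrdc3 to 0.305 for Arrdc4 and Arrdc2, with adjusted permutation p of 0.133 or more. Adenoma 5, the only adenoma labelled male, adds nothing to r, since its own mean is subtracted. It still takes a rank in rho and enters the permutations. With group means alone subtracted, neither relation passed (r = 0.655 and −0.804, both adjusted p = 0.0975 by permutation), and at 5 months the same pairs had r = −0.435 and 0.35.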

How the data were processed

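RNA was enriched with oligo(dT) beads and primed with random hexamers, per the labels' protocols; no molecular identifiers are named. The authors deposited raw counts per gene, TPM, and log2 fold changes with adjusted p-values of their own comparisons, with GRCm38.p6 as the build in the submitters' processing notes. No source used here names an aligner, a counter or the strandedness. The authors' 42 and 20 other per-sample columns were not used. TPM served only to compare levels between genes.

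Counts were tested with edgeR 4.0.16 (R 4.3.3; quasi-likelihood, TMM, filterByExpr with a minimum count of 10, group means and a sex term), each table on its own. The threshold was an adjusted p of 0.05 (Benjamini-Hochberg), taken over 13397 and 13954 genes, on 16 and 7 residual degrees of freedom. Every adjusted p of a gene without a named tool is edgeR's. DESeq2 1.42.0 and limma 3.58.1 (limma-voom) were alternatives. The script was tested on simulated data. Correlations used log2 CPM (prior count 1) and 100000 permutations within groups, not within sex. Where sex means were subtracted, the permutation p may thus be too small. No replicates agreed within sampling noise. The members and lists were chosen with earlier results of these data known. Named were the 4 members, Arrdc1, Arrdc5, Myc, Mlx, up to 4 called genes with the smallest adjusted p per list and comparison, and the 5 genes most like each member. A few genes that this rule names are not reported here. Exon overlaps are from GENCODE on GRCm38.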

Additional observations from a re-analysis of the deposited data

Results flagged for a closer look

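Of 24 groups of library values (4 genes in 6 groups), 3 held a library far from the others of its group; chance flags about 1 in 20 groups. Arrdc2 in DKO 4 was at 4.51 CPM, while the other 4 DKO libraries had 6.995 to 7.50 CPM. Arrdc3 in WT 3, a female, was at 92.3 CPM, with the other 5 WT libraries at 26.7 to 42.8 CPM. Txnip in adenoma 2 was at 117 CPM, with the other 4 adenomas at 24.6 to 41.7 CPM.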

How the results depend on the processing

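No paired analysis was possible because the labels give no replicate numbers that groups share. Of 652 recomputed tests of the 4 members, 589 kept direction and side of the threshold, 10 lost a call, 10 gained one and 43 uncalled changes turned sign; the cause was not tested. Recomputing Gm15441 and the named list genes was chosen after seeing the data. Depth was 16036626 counts or more per library, and intervals reflect 4 to 6 libraries a group.

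On the log2 scale, plain totals gave Arrdc2 0.0752 in MycKO against WT, Arrdc4 0.0764 in MlxKO against WT, Arrdc3 0.0388 in DKO against WT, Arrdc4 −0.83 in DKO against MycKO, Txnip −0.0401 in the interaction, Arrdc2 0.70 for sex, and Arrdc4 0.20 and Arrdc2 1.31 in adenomas. DESeq2 gave Arrdc3 −1.26 in DKO against MycKO. Limma-voom gave Arrdc4 −0.74 there and Arrdc3 −0.00203 in DKO against MlxKO. Without a sex term Arrdc2 was −0.22 in MlxKO and −0.0654 in DKO against WT, Arrdc3 −1.36 in DKO against MycKO, and Arrdc4 0.12 and Arrdc2 1.11 in adenomas. In males only Arrdc2 was 0.23 in MycKO, Arrdc4 0.0833 in MlxKO and Arrdc3 0.0585 in DKO against WT, Arrdc3 −1.41 in DKO against MycKO, and Txnip −0.014 and Arrdc2 −0.0708 in the interaction. With only the groups compared Arrdc4 was 0.0844 in MlxKO and Arrdc3 0.0585 in DKO against WT. Without WT 2, WT 5 and MycKO 5, Arrdc2 was −0.0601 in MlxKO and Txnip −0.024 in DKO against WT. Correlations without sex subtracted were 0.696 for Txnip and Arrdc4 (adjusted permutation p = 0.0473), 0.248 for Arrdc4 and Arrdc2 and 0.0367 for Arrdc2 and Arrdc3 at 5 months, and −0.804 and 0.655 for Txnip with Arrdc2 and with Arrdc3 in the old set.

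Leaving out 1 library at a time gave Arrdc2 −0.11 to 0.10 in MycKO against WT, Txnip −0.44 to 0.18, Arrdc4 −0.24 to 0.0145 and Arrdc2 −0.14 to 0.0883 in MlxKO against WT, and Arrdc3 −0.48 to 0.11 in DKO against WT. It gave Txnip −0.28 to 0.0895, Arrdc4 −1.09 to −0.63 and Arrdc3 −1.65 to −0.76 in DKO against MycKO, and Arrdc3 −0.20 to 0.39 in DKO against MlxKO. The interaction of Txnip was −0.22 to 0.33, the sex difference of Txnip 0.61 to 1.0 and of Arrdc3 −0.21 to 0.59, and Arrdc4 in adenomas −0.49 to 0.0285.

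Genes called numbered 12 in MycKO, 227 in MlxKO and 2475 in DKO against WT, 1592 in DKO against MycKO, 5 in DKO against MlxKO, 0 in the interaction, 466 for sex and 2290 in adenomas. Leaving out 1 library moved these to 2 to 25, 45 to 1055, 1218 to 3195, 892 to 1772, 1 to 6, 0 to 1, 216 to 618 and 704 to 2906. DESeq2 called 74 in MycKO and 849 in MlxKO against WT, 47 in DKO against MlxKO, 4 in the interaction, 824 for sex and 3503 in adenomas. Plain totals called 1037 in DKO against MycKO, 3 in DKO against MlxKO, 782 for sex and 3809 in adenomas. RLE called 3 and limma-voom 2 in DKO against MlxKO. No sex term gave 7 in MycKO, 122 in MlxKO and 3486 in adenomas. Males only gave 2 in MycKO, 96 in MlxKO and 1520 in DKO against WT and 2 in DKO against MlxKO. Only the groups compared gave 1, 38 and 1220 against WT and 22 in DKO against MlxKO. Without WT 2, WT 5 and MycKO 5 there were 82 in MlxKO and 1298 in DKO against WT, 15 in DKO against MlxKO and 1 in the interaction. With adenoma 5 set as female 1005 were called in adenomas.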
